A study of Mus musculus with 7 samples.

Results

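This account concerns 38 genes of glucose breakdown and of the response to low oxygen, 24 named as glycolysis genes and 14 as hypoxia response genes. The genes were listed by name, with earlier results of these data known. Each was read through its probe set with exactly 1 gene symbol and, where a gene had several such probe sets, through the probe set whose mean level over the arrays was highest. With that rule 35 of the 38 genes were measured, 21 for glycolysis and 14 for hypoxia, of 19938 genes measured in all. Gapdh, the glyceraldehyde phosphate dehydrogenase gene, had 25 probe sets, each with several symbols, and Gpi1 (glucose phosphate isomerase) and Eno1 (the ubiquitous enolase) had no named probe set, so these 3 enzymes are not analysed here.

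Messenger RNA was measured on 7 Affymetrix expression arrays, each from 1 mouse culture, as log2 levels that were normalized with RMA before deposit. OG2 embryonic stem (ES) cells gave 1 array in N2B27(2i), a defined medium with inhibitors of MEK and GSK3, and induced pluripotent stem (iPS) line O4-1 gave 1 array in the same medium. The iPS lines O4-1, O4-2 and O4-4, each derived from embryonic fibroblasts infected with Oct4 as the single factor, gave 3 arrays in KSR (a serum replacement medium). Mouse embryonic fibroblasts (MEFs), the unreprogrammed cells, came from 129/OG2 embryos and gave 1 array in iCD1, a medium the labels name by that code, and 1 array in FBS (fetal bovine serum). The ES cells and MEFs carry the OG2 background, the iPS samples carry no genetic background label, and no oxygen level is given in the sources used here. The lines O4-1, O4-2 and O4-4 were the only replicates (n = 3 lines), and where the labels do not call cultures separate, p-values measure only the spread between these arrays. The sample titles and growth conditions gave the groups, although other label fields go against them: each sample is also described as iPS cells shortly after infection, the iPS source field names iCD1, and the ES source field names fibroblasts.

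The marker genes fitted the titles. The mean level of 8 pluripotency markers was 10.25 in ES cells in 2i, 10.39 in iPS cells in 2i and between 9.96 and 10.19 in the KSR lines, against 4.24 in MEFs in iCD1 and 4.20 in MEFs in FBS. The mean level of 10 fibroblast markers ran the other way, between 6.17 and 7.30 on the 5 pluripotent arrays, against 10.11 and 9.29 in MEFs in iCD1 and FBS. Array medians lay between 4.97 and 5.03, and the precision of every value is limited by how few arrays there are.

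Glycolysis turns glucose into pyruvate in the cytosol, and lactate dehydrogenase can then turn pyruvate into lactate, which leaves the cell through monocarboxylate transporters. Hypoxia-inducible factor (HIF) is a transcription factor whose alpha subunit is marked for destruction by oxygen-dependent prolyl hydroxylases, and when oxygen is low it switches on many glycolytic genes together with genes of blood vessel growth, mitophagy and collagen modification. Mouse pluripotent stem cells are known for a high glycolytic rate.

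**Figure D1:**
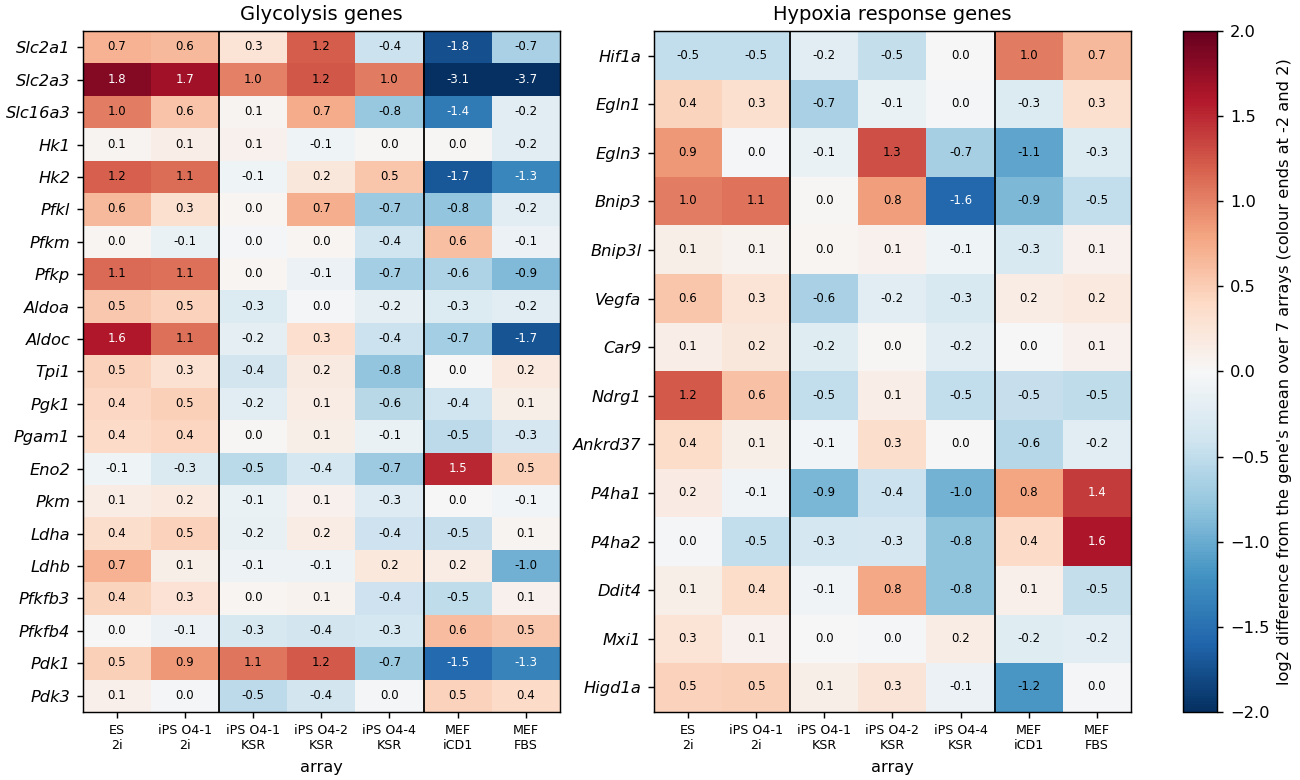
The log2 level of each of the 35 measured genes on the 7 arrays, as the difference from that gene's own mean over the arrays, with glycolysis genes in the left panel and hypoxia genes in the right panel. Red is above and blue below the gene's mean. Slc2a3 separated the 5 pluripotent arrays from both MEF arrays, while Hif1a, P4ha1, P4ha2 and Eno2 were at their highest in MEFs.

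The KSR iPS lines were first set against the MEFs, which asks how these genes differ between cells reprogrammed with Oct4 and fibroblasts. The glucose transporter gene Slc2a3 and the hexokinase gene Hk2 rose in the iPS lines, while the enolase gene Eno2 and Pfkfb4 fell, and 12 of the 14 measured enzymes of the pathway itself did not pass in either direction. Of 21 glycolysis genes 2 rose and 2 fell at an adjusted p under 0.05 (limma, 1 fit of all arrays, Benjamini-Hochberg over all genes), where 12.1% of all genes rose and 14.3% fell. The median difference of the 21 genes was 0.11, beside 0.00 for all genes, with 14 genes higher and 7 lower. Cell type and medium changed together here, since no MEF culture was in KSR, so the part of each cannot be told apart, and in such bulk samples fewer cells of a type and less RNA per cell cannot be told apart either.

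Transport of glucose into the cell showed the largest difference of any member. Slc2a3, which encodes a high-affinity glucose transporter, had log2 levels of 10.67, 10.90 and 10.69 in lines O4-1, O4-2 and O4-4, against 6.53 and 5.98 in MEFs in iCD1 and FBS. The groups were far apart, and the rise of 4.50 ± 0.12 (SE, 22.6-fold) passed in limma with an adjusted p of 0.00659. Slc2a1, the glucose transporter gene of most cell types, had levels of 10.01, 10.94 and 9.30 in the KSR lines, against 7.97 and 9.08 in MEFs in iCD1 and FBS. All 3 lines lay above both MEF arrays, but the lines spread over 1.64, and the difference of 1.56 ± 0.56 did not pass (limma, adjusted p = 0.140). For Slc16a3, a lactate exporter gene, the groups overlapped, with 7.05, 7.74 and 6.23 in the KSR lines and 5.58 and 6.77 in the MEFs in iCD1 and FBS (limma, adjusted p = 0.340).

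Hexokinase carries out the first step, the phosphorylation of glucose. Hk2 had log2 levels of 8.45, 8.75 and 9.08 in lines O4-1, O4-2 and O4-4, against 6.83 and 7.22 in MEFs in iCD1 and FBS. The groups did not overlap, and Hk2 rose by 1.73 ± 0.23 (SE, 3.32-fold; limma, adjusted p = 0.0176). Hk1 was read through a probe set that carries the Hk1 symbol but lists no RefSeq transcript of the gene and shares its sequence record with probe sets of Rpl17, a ribosomal protein gene. That probe set was nearly constant, with a range of 0.37 over the 7 arrays. The other probe set of Hk1, which lists 4 RefSeq transcripts, gave 5.79, 5.72 and 6.63 in the KSR lines, against 6.81 and 6.69 in MEFs in iCD1 and FBS. Through it the difference was -0.70 and did not pass in limma, so the sign for Hk1 depended on the probe set.

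The phosphofructokinase subunit genes, which act at the committed step, did not pass in either direction. Pfkl (liver type) had levels of 8.07, 8.76 and 7.31 in the KSR lines and 7.25 and 7.82 in MEFs in iCD1 and FBS, with overlap. Pfkp (platelet type) had 8.07, 7.91 and 7.35, against 7.41 and 7.14, and Pfkm (muscle type) had 7.36, 7.41 and 6.98, against 7.98 and 7.27 in the same order. The adjusted p of the 3 genes in limma lay between 0.230 and 0.537.

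Among the middle and late enzymes 4 of 9 differed by less than 0.1. Aldoa, the main aldolase gene, differed by 0.08 ± 0.11, Pgk1 (phosphoglycerate kinase) by -0.07 ± 0.25, Pkm (pyruvate kinase) by -0.08 ± 0.15 and Ldha (lactate dehydrogenase, A subunit) by 0.06 ± 0.21, with adjusted p between 0.655 and 0.889 in limma. Pgam1 (phosphoglycerate mutase) was above both MEF arrays in all 3 lines, at 10.04, 10.14 and 9.89 in the KSR lines against 9.50 and 9.68 in MEFs in iCD1 and FBS, a difference of 0.43 ± 0.12 that did not pass (limma, adjusted p = 0.0761). Aldoc, the aldolase gene best known from brain, had 6.31, 6.83 and 6.07 in the KSR lines, against 5.82 and 4.77 in MEFs in iCD1 and FBS. Its difference of 1.11 ± 0.28 also missed the threshold (limma, adjusted p = 0.0648).

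Eno2, the enolase gene of neurons, went the other way. Its levels were 4.90, 5.09 and 4.71 in lines O4-1, O4-2 and O4-4, against 6.94 and 5.92 in MEFs in iCD1 and FBS. It fell by 1.53 ± 0.15 (limma, adjusted p = 0.0114), with no overlap between the groups. The SE leaves out the gap between the MEF arrays, and over the alternatives, which include each MEF array alone, the difference ran from -2.04 to -1.02. Tpi1 (triosephosphate isomerase) and Ldhb (lactate dehydrogenase, B subunit) overlapped between the groups and differed by -0.43 ± 0.34 and 0.41 ± 0.14 (limma, adjusted p = 0.449 and 0.132).

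The regulators of flux split. Pfkfb3 and Pfkfb4 encode bifunctional enzymes that make and break down the activator of phosphofructokinase. Pfkfb4 had levels of 4.65, 4.60 and 4.63 in the KSR lines, against 5.59 and 5.51 in MEFs in iCD1 and FBS, and fell by 0.92 ± 0.08 (limma, adjusted p = 0.00977). Pfkfb3 overlapped, with 5.43, 5.46 and 4.98 in the KSR lines and 4.88 and 5.48 in MEFs. The pyruvate dehydrogenase kinases, which block entry of pyruvate into the mitochondrial citric acid cycle, are represented among the members by Pdk1 and Pdk3, of which neither passed. Pdk1 had 8.22, 8.38 and 6.41 in lines O4-1, O4-2 and O4-4, against 5.61 and 5.82 in MEFs in iCD1 and FBS. All 3 lines lay above both MEF arrays, line O4-4 by far the least, and the difference of 1.96 ± 0.75 did not pass (limma, adjusted p = 0.155). Without line O4-4 it was 2.59 ± 0.11 and passed (limma, adjusted p = 0.0428). Pdk3 had 6.82, 6.97 and 7.33 in the KSR lines, against 7.80 and 7.72 in MEFs, below both in every line, with a difference of -0.72 ± 0.19 (limma, adjusted p = 0.0760). The other genes of this kinase family, named here after their values were seen, were lower too: Pdk2 fell by 1.08 ± 0.23 (limma, adjusted p = 0.0448), and Pdk4 differed by -0.95 ± 0.22 (limma, adjusted p = 0.0534).

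Of the 14 hypoxia response genes 3 fell in the KSR lines and 0 rose in limma, where 14.3% of all genes fell and 12.1% rose, and 5 of the 14 (35.7%) had an unadjusted p under 0.05, against 39.0% of all genes. The genes that fell were the HIF subunit gene Hif1a and both collagen prolyl hydroxylase genes. The median of the 14 was 0.14, with 8 higher and 6 lower. Hif1a, the oxygen-regulated alpha subunit, had log2 levels of 8.25, 7.99 and 8.46 in lines O4-1, O4-2 and O4-4, against 9.50 and 9.12 in MEFs in iCD1 and FBS. It fell by 1.08 ± 0.18 (limma, adjusted p = 0.0280). The arrays measure its messenger RNA, whereas oxygen acts on the protein. The hydroxylase genes Egln1 and Egln3, whose products mark HIF for destruction and are themselves HIF targets, overlapped between the groups (limma, adjusted p = 0.453 and 0.465).

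P4ha1 and P4ha2 encode the catalytic subunits of collagen prolyl hydroxylase. P4ha1 had levels of 6.99, 7.46 and 6.95 in the KSR lines, against 8.69 and 9.30 in MEFs in iCD1 and FBS. P4ha2 had 6.0, 6.02 and 5.54 in the KSR lines, against 6.74 and 7.97 in MEFs in iCD1 and FBS. Neither gene overlapped between the groups, P4ha1 fell by 1.86 ± 0.21 (limma, adjusted p = 0.0139) and P4ha2 fell by 1.5 ± 0.20 (limma, adjusted p = 0.0180). These SEs rest on the KSR lines and leave out the gap between the MEF arrays. Over the alternatives, which include each MEF array alone, the P4ha2 difference ran from -2.12 to -0.88. The fibroblast markers given above moved with P4ha1 and P4ha2, and the part of the markers in these differences was not tested.

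The remaining targets did not pass. Vegfa, the vascular growth factor gene, had 6.34, 6.76 and 6.68 in the KSR lines, below the 7.14 and 7.17 of MEFs in iCD1 and FBS in every line (difference -0.56 ± 0.17; limma, adjusted p = 0.102). Higd1a, a mitochondrial inner membrane protein gene, had 6.22, 6.37 and 5.99, against 4.93 in MEFs in iCD1 and 6.08 in MEFs in FBS, and its difference of 0.68 ± 0.15 was just short of the threshold (limma, adjusted p = 0.0505). Ankrd37, an ankyrin repeat gene, and Mxi1, an antagonist of MYC, lay above both MEF arrays in all 3 lines, by 0.48 ± 0.17 and 0.27 ± 0.11 (limma, adjusted p = 0.130 and 0.162). The mitophagy receptor gene Bnip3 had 8.01, 8.83 and 6.42 in the KSR lines and 7.08 and 7.49 in MEFs in iCD1 and FBS, so that lines O4-1 and O4-2 were above both MEF arrays and line O4-4 below both. Its relative Bnip3l, the stress-induced mTOR inhibitor gene Ddit4, the stress gene Ndrg1 and the carbonic anhydrase gene Car9 differed by 0.12, 0.15, 0.20 and -0.18 (limma, adjusted p between 0.403 and 0.876).

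Counted by position alone, all 3 KSR lines lay above both MEF arrays for 8 of the 35 members (22.9%), against 25.6% of all genes. They lay below both for 7 members (20.0%), against 26% of all genes. Both shares were near those of all genes. The calls depended on the lines. When either line O4-1 or line O4-2 was left out, 0 of all genes were called in limma, with 5804 and 6924 genes and 8 and 10 members at an unadjusted p under 0.05. Without line O4-4 it called 6 members, namely Slc2a3, Hk2, Eno2, Pfkfb4, P4ha2 and Pdk1, while Hif1a had an adjusted p of 0.0536 and P4ha1 of 0.0579. Those 6 members were 17.1% of the 35, near the 13.9% of all genes called without that line. Against the FBS culture of MEFs alone 4 members (11.4%) were called, Slc2a3, Pfkfb4, P4ha1 and P4ha2, and 14.9% of all genes. The median of the hypoxia genes was -0.16 without line O4-2.

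**Figure D2:**
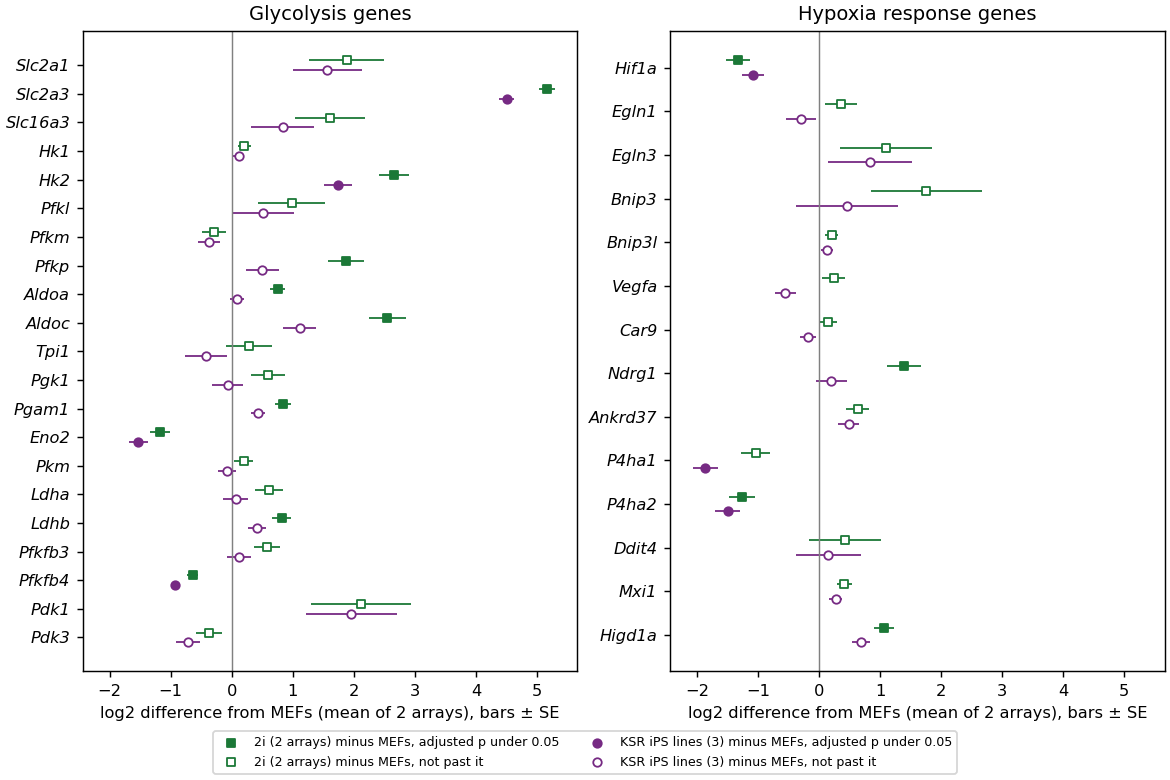
Log2 difference from the mean of both MEF arrays for each measured gene, for the mean of both 2i arrays (green squares) and for the 3 KSR iPS lines (purple circles). Bars are ± 1 SE from limma, and filled symbols have an adjusted p under 0.05. Slc2a3 lay at 5.16 in 2i and 4.50 in KSR, and Hif1a, P4ha1, P4ha2, Eno2 and Pfkfb4 lay left of 0 in both.

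HIF binds the core letters ACGTG or GCGTG, and the 300 bases around the start of each gene were searched for both motifs on both strands, with overlapping matches counted (CACGTG is ACGTG on either strand and counts as a pair of matches). RefSeq promoters of build GRCm38.p6, from 250 bases before to 50 bases after the start, were listed for 35 of the 38 genes, without Slc2a3, Bnip3l and Ndrg1. Either motif stood in 41 of the 51 promoters of these genes (80.4%), against 43.8% of 32851 promoters in the table. The share was 77.8% for glycolysis promoters and 86.7% for hypoxia promoters. ACGTG stood in 58.8% of the members' promoters against 19.6% of all, and GCGTG in 54.9% against 32.4%. The genes were listed by name from pathways that HIF is known to switch on, so these shares test nothing about HIF in these cultures. Some genes have several listed starts with overlapping windows, which were counted separately. The other promoters were not matched for base composition. No listed promoter of Eno2, Gpi1 or Tpi1 held either motif. The 5 promoters below are those of the hypoxia genes with the largest differences that have an entry, 2 that fell in the KSR lines (P4ha1, P4ha2) and 1 that was higher in 2i (Bnip3), and of the kinase pair whose differences had opposite signs (Pdk1, Pdk3). Each is written from 5′ to 3′ on the gene's strand, with matches to either motif in capitals (CACGT and CACGC are matches on the other strand).
P4ha1 promoter, chr10:59323046-59323345, plus strand: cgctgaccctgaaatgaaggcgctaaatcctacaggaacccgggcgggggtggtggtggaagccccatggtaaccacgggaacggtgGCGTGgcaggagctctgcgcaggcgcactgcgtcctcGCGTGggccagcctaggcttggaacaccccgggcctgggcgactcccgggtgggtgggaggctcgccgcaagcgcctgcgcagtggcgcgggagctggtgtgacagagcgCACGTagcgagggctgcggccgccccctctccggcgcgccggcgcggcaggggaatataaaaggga
P4ha2 promoter, chr11:54100674-54100973, plus strand: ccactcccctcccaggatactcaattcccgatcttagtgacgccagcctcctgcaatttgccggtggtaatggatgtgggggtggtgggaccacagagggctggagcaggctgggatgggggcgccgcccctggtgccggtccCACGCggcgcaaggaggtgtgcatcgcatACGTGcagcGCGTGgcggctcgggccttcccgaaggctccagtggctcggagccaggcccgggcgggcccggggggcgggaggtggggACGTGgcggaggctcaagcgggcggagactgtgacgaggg
Bnip3 promoter, chr7:138909457-138909756, minus strand: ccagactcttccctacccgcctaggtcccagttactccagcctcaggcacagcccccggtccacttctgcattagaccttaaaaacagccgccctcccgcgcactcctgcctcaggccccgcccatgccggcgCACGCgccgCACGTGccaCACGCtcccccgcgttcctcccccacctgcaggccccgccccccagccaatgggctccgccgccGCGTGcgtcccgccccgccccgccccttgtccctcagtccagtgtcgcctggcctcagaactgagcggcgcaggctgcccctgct
Pdk1 promoter, chr2:71872974-71873273, plus strand: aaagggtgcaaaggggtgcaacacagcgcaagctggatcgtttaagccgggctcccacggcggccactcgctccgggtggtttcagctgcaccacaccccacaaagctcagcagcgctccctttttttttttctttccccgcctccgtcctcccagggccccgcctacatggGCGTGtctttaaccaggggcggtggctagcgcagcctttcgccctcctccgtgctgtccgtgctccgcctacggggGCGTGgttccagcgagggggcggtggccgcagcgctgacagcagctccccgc
Pdk3 promoter, chrX:93832101-93832400, minus strand: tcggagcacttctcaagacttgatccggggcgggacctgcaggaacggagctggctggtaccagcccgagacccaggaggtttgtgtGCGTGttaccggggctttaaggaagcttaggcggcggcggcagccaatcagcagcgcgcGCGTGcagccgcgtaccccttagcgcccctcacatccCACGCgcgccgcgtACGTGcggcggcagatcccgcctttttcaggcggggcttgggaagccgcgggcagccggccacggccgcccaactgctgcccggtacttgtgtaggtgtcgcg
All 5 windows held a motif, 3 times in P4ha1, 4 times in P4ha2, 5 times in Bnip3, 2 times in Pdk1 and 4 times in Pdk3. With all KSR lines set against MEFs, only P4ha1 and P4ha2 of these genes passed. Any link between matches and levels was not tested. A second listed start of Pdk1 held 0 matches. A match is a description of letters and does not show binding.

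The 2 cultures in 2i were next set against the KSR lines, to see how these genes differed between the 2 sets of cultures. Of the 2i cultures 1 was of ES cells, whereas every KSR culture was an iPS line. The other was of line O4-1, which is also 1 of the KSR lines. Cell origin, line and medium thus changed together, and the part of each cannot be told apart in this comparison. Nearly all members were higher in 2i. The mean of both 2i arrays was above the KSR mean for 21 of 21 glycolysis genes, with a median of 0.46, and for 13 of 14 hypoxia genes, with a median of 0.30, where the median of all genes was 0.01. Not every sign held over the alternatives. The lowest difference was -0.07 for Slc2a1, -0.05 for Pfkm, -0.48 for Pdk1, -0.15 for Egln3 and -0.11 for Ddit4. The other probe set of Ldhb gave 7.495 in ES cells and 6.70 in iPS cells in 2i, against 7.25, 6.97 and 7.45 in the KSR lines. Both 2i arrays lay above all 3 KSR lines for 20 of 35 members (57.1%), 13 for glycolysis and 7 for hypoxia, against 12.9% of all genes. They lay below all 3 lines for 1 member, Hif1a, against 13.1% of all genes. Through the other probe sets of Pkm and Higd1a, these genes did not lie above all 3 lines on both 2i arrays.

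No member passed the test in this comparison, and neither did any other gene. limma called 0% of genes higher and 0% lower for both 2i arrays, for iPS cells in 2i and for ES cells in 2i alike, while 1799, 1339 and 1746 genes had an unadjusted p under 0.05 in these 3 comparisons, 10, 6 and 10 members among them. The lowest adjusted p of a member was 0.545 for both arrays. Against the KSR lines the iPS array alone gave medians of 0.39 for glycolysis and 0.38 for hypoxia genes, and the ES array gave 0.54 and 0.42. The KSR lines are shared by these comparisons. The medians moved with the lines: without line O4-2 the glycolysis and hypoxia medians of both 2i arrays were 0.69 and 0.57, and without line O4-4 they were 0.39 and 0.24. For the iPS array alone the glycolysis median was 0.67 without line O4-2 and 0.23 without line O4-4, and the hypoxia median was 0.19 without line O4-4.

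The largest differences were those of Aldoc and Pfkp. Aldoc had log2 levels of 8.09 in ES cells and 7.59 in iPS cells in 2i, against 6.31, 6.83 and 6.07 in KSR lines O4-1, O4-2 and O4-4. Both 2i arrays were higher than every KSR line, by 1.44 ± 0.28 on average (2.71-fold; limma, adjusted p = 0.545). Pfkp had 9.16 in ES cells and 9.13 in iPS cells in 2i, against 8.07, 7.91 and 7.35 in the KSR lines, a difference of 1.37 ± 0.27 (2.58-fold; limma, adjusted p = 0.545). The 2i levels of Pfkp were almost equal, and its lowest KSR level was in line O4-4.

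Other steps of the pathway lay higher without overlap. Hk2 had 9.73 in ES cells and 9.64 in iPS cells in 2i, against 8.45, 8.75 and 9.08 in the KSR lines. Aldoa had 12.04 and 11.96 in ES and iPS cells in 2i, against 11.23, 11.46 and 11.32 in the KSR lines. Slc2a3 had 11.49 and 11.34 in ES and iPS cells in 2i, against 10.67, 10.90 and 10.69 in the KSR lines. The differences were 0.93 ± 0.23 for Hk2, 0.67 ± 0.11 for Aldoa and 0.66 ± 0.12 for Slc2a3, each with an adjusted p of 0.545 in limma.

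Tpi1, Pgk1, Pgam1, Eno2, Pkm, Ldha, Pfkfb3 and Pfkfb4 were also above every KSR line in both 2i cultures, with differences of 0.27 to 0.72 between the 2i and KSR means. The gap between the lower 2i level and the highest KSR level was narrower, from 0.05 for Pkm and 0.07 for Eno2 to 0.27 for Pgk1 and Pgam1. Ldha, for example, had 11.30 in ES cells and 11.40 in iPS cells in 2i, against 10.79, 11.10 and 10.53 in the KSR lines. The members without such a gap through the probe sets used were Slc2a1, Slc16a3, Hk1, Pfkl, Pfkm, Ldhb, Pdk1 and Pdk3. Through the other probe set of Pkm, which lists 3 RefSeq transcripts, the gap was absent as well. That probe set gave 10.94 in ES cells in 2i and 10.95 in line O4-2. Slc2a1 had 10.43 in ES cells and 10.38 in iPS cells in 2i, inside the KSR range of 9.30 to 10.94. Pdk1 had 7.63 and 8.02 in ES and iPS cells in 2i, below the 8.22 and 8.38 of lines O4-1 and O4-2 and above the 6.41 of line O4-4.

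Among the hypoxia genes, Bnip3 and Ndrg1 differed most. Bnip3 had 9.01 in ES cells and 9.08 in iPS cells in 2i, against 8.01, 8.83 and 6.42 in KSR lines O4-1, O4-2 and O4-4. The mean difference was 1.29 ± 0.83 with all lines and 0.63 ± 0.38 without line O4-4. Ndrg1 had 8.58 in ES cells and 7.94 in iPS cells in 2i, against 6.87, 7.49 and 6.87 in the KSR lines, a difference of 1.18 ± 0.26 (limma, adjusted p = 0.545). Vegfa had 7.53 and 7.26 in ES and iPS cells in 2i, against 6.34, 6.76 and 6.68 in the KSR lines (difference 0.80 ± 0.17), and P4ha1 had 8.07 and 7.84, against 6.99, 7.46 and 6.95 (difference 0.82 ± 0.21). Egln1, Higd1a and Car9 were above every line too, with mean differences of 0.66, 0.38 and 0.32, and with gaps to the highest KSR level of 0.36, 0.19 and 0.10. Through its other probe set Higd1a had 5.75 in ES cells and 5.71 in iPS cells in 2i, below the 5.88 of line O4-1. Hif1a itself went the other way, at 7.99 in ES cells and 7.98 in iPS cells in 2i, against 8.25, 7.99 and 8.46 in the KSR lines. Its difference was -0.25 ± 0.18, and the 2i levels hardly left the KSR range.

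**Figure D3:**
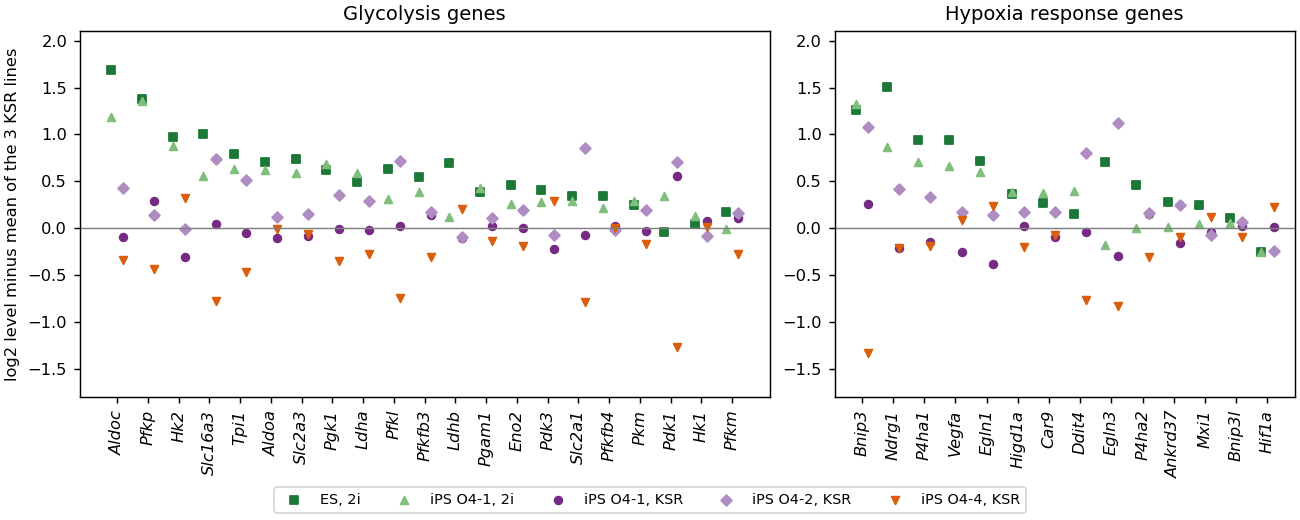
Log2 level of each measured gene minus its mean over the 3 KSR lines, with the 2i arrays (green) left of the KSR lines (purple and orange) for each gene, and genes ordered by the mean 2i difference. Aldoc, Pfkp, Hk2 and Ndrg1 in 2i lay above all 3 KSR lines, and line O4-4 (orange) gave the lowest KSR value for 22 of the 35 genes.

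Line O4-1 was the 1 line grown in both media, so it shows the media without a change of line, although with 1 array in each and no test. In 2i 19 of 21 glycolysis genes and 12 of 14 hypoxia genes were higher, with medians of 0.40 and 0.39. The 10 fibroblast markers had a mean level of 6.17 in 2i and 6.79 in KSR in that line, with 8 of the 10 lower in 2i, and their part in these differences was not tested. A difference of 2-fold or more was reached upward by 5 members, Aldoc (1.28), Hk2 (1.19), Ndrg1 (1.07), Bnip3 (1.07) and Pfkp (1.07), where 0.481% of all genes did so. No member was 2-fold or more lower, where 0.953% of all genes were. Egln1 and Vegfa were 0.98 and 0.92 higher. Pdk1 differed by -0.21, with 8.02 in 2i and 8.22 in KSR, and Hif1a by -0.27.

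The 2i cultures were also set against the MEFs, which served the comparison with the KSR lines too, so both rest on the same MEF arrays. Of 21 glycolysis genes 7 rose and 2 fell, and of 14 hypoxia genes 2 rose and 2 fell, where 9.75% of all genes rose and 12.5% fell. Slc2a3 rose by 5.16 ± 0.13, Hk2 by 2.66 ± 0.25 and Aldoc by 2.55 ± 0.30 (limma, adjusted p = 0.00823, 0.0135 and 0.0183). Pfkp, Pgam1, Ldhb and Aldoa rose by 1.87, 0.84, 0.82 and 0.75 (limma, adjusted p between 0.0276 and 0.0427). The groups overlapped for Ldhb, since iPS cells in 2i, at 7.49, were below the 7.51 of MEFs in iCD1, against which the difference was 0.26 ± 0.19 (limma, adjusted p = 0.432). With the mean of both Ldhb probe sets it was 0.52 ± 0.17 and did not pass (limma, adjusted p = 0.125). The hypoxia genes Ndrg1 and Higd1a rose by 1.39 ± 0.28 and 1.06 ± 0.17 (limma, adjusted p = 0.0476 and 0.0289). Ndrg1 passed in 8 of 14 alternatives and Higd1a in 10 of 14. The MEF levels of Higd1a were 4.93 in iCD1 and 6.08 in FBS, and its difference ran from 0.48 to 1.63 over the alternatives. With the mean of all probe sets of a gene Higd1a did not pass, and with probe sets of several symbols allowed Ndrg1 did not.

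The members that fell were the HIF subunit gene, 1 collagen prolyl hydroxylase gene, 1 enolase gene and Pfkfb4. Hif1a fell by 1.33 ± 0.20, P4ha2 by 1.26 ± 0.22, Eno2 by 1.17 ± 0.17 and Pfkfb4 by 0.64 ± 0.09 (limma, adjusted p between 0.0234 and 0.0343). These SEs also leave out the gap between the MEF arrays. Over the alternatives the P4ha2 difference ran from -1.88 to -0.65 and that of Eno2 from -1.68 to -0.66. P4ha1, at 8.07 in ES cells and 7.84 in iPS cells in 2i, against 8.69 and 9.30 in MEFs in iCD1 and FBS, differed by -1.04 ± 0.23 and narrowly missed (limma, adjusted p = 0.0563). Pdk1 and Slc2a1 were higher by 2.11 ± 0.82 and 1.88 ± 0.62 and did not pass (limma, adjusted p = 0.165 and 0.123). Without line O4-1 or O4-2, whose spread the test uses, 0 genes were called, with 5905 and 6732 genes and 14 and 19 members at an unadjusted p under 0.05. Without line O4-4 limma called 9 members, Slc2a3, Hk2, Aldoc, Pfkp, Ldhb, Pdk1, Eno2, Higd1a and P4ha2, which is 25.7% of the 35, and 12.1% of all genes. Against the FBS culture of MEFs alone it called 5 members (Slc2a3, Hk2, Aldoc, Ldhb and P4ha2) and 11.9% of all genes, and against the iCD1 culture alone 8 members and 16.9% of all genes.

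ES cells in 2i were then set against iPS cells in 2i, which share a medium. With 1 array each there is no test, and 0 of the 35 members differed 2-fold or more, where 0.672% of all genes were higher and 0.306% lower in ES cells by that much. The median of the glycolysis genes was 0.13 and that of the hypoxia genes 0.16, beside -0.01 for all genes. The members that were farthest apart were Egln3, with 7.14 in ES cells and 6.25 in iPS cells, Ndrg1 with 8.58 and 7.94, Ldhb with 8.06 and 7.49, and Aldoc with 8.09 and 7.59. Pdk1 was the lowest in that order, at 7.63 in ES cells and 8.02 in iPS cells. For Egln3 the KSR lines themselves spread from 5.61 to 7.55, more than this gap.

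Among the KSR lines, O4-4 stood apart in these genes. It had the lowest level of the 3 lines for 22 of 35 members (62.9%), 14 for glycolysis and 8 for hypoxia, against 34.5% of all genes, and the highest for 6. The median SD over the lines was 0.27 for the members and 0.16 for all genes. Pdk1 and Bnip3 were 2-fold or more below both other lines, where 0.481% of all genes were. Pdk1 was at 6.41 in line O4-4, against 8.22 in line O4-1 and 8.38 in line O4-2. Bnip3 was at 6.42, against 8.01 and 8.83, and its second probe set gave the same order, with 5.88 in line O4-4, against 7.03 and 7.40 in lines O4-1 and O4-2.

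Slc2a1, Slc16a3, Pfkl, Egln3 and Ddit4 were lower in line O4-4 than in line O4-2 by between 1.46 and 1.95 and lower than in line O4-1 by between 0.53 and 0.82. For all 5 the order of the lines was O4-2 highest and O4-4 lowest. Hk2, Pdk3, Hif1a, Egln1, Ldhb and Mxi1 ran the other way, with their highest KSR level in line O4-4. Hk2 was at 9.08 in line O4-4, against 8.45 and 8.75 in lines O4-1 and O4-2. Of the 10 fibroblast markers 7 were higher in line O4-4 than in both other lines, by 0.51 and 0.53 on average over the 10, and their part in these differences was not tested.

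The MEF cultures compare media within 1 cell type, with 1 array each and no test. The 10 fibroblast markers had a mean level of 10.11 in iCD1 and 9.29 in FBS, with some markers higher and others lower in iCD1. Their part in the differences of the members was not tested. Most hypoxia genes were lower in iCD1, 11 of 14, with a median of -0.38 beside -0.02 for all genes. The related lists did not share that direction, with 16 of 30 other hypoxia targets higher and 14 lower in iCD1 (median 0.11) and 8 of 10 genes of the HIF machinery higher (median 0.15). The glycolysis genes were mixed, with 10 higher and 11 lower and a median of -0.05. Of the 35 members 3 were 2-fold or more higher, where 1.7% of all genes were, and 4 were 2-fold or more lower, where 0.998% were.

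The genes that were lower in iCD1 included the lactate exporter gene Slc16a3 and the glucose transporter gene Slc2a1, whereas the other glucose transporter gene, Slc2a3, was 0.54 higher. Slc16a3 was at 5.58 in iCD1, against 6.77 in FBS, and Slc2a1 at 7.97 in iCD1, against 9.08 in FBS. P4ha2 was at 6.74 in iCD1, against 7.97 in FBS, and Higd1a at 4.93 in iCD1, against 6.08 in FBS. The other probe set of Higd1a gave 4.85 in iCD1, against 5.35 in FBS, a gap of less than 2-fold. Egln3, P4ha1, Egln1, Pfkfb3, Pfkl, Ldha and Pgk1 were lower by between 0.52 and 0.78. For Slc2a1, Slc16a3, Pfkl and Egln3 the 3 KSR lines alone spread over 1.64, 1.51, 1.46 and 1.95, more than these unreplicated differences.

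Ldhb, Aldoc and Eno2 were higher in iCD1. Ldhb was at 7.51 in iCD1, against 6.40 in FBS, Aldoc at 5.82, against 4.77, and Eno2 at 6.94, against 5.92. The second probe set of Ldhb gave 7.24 in iCD1, against 6.53 in FBS, a smaller gap. Pfkm, Ddit4 and Hif1a were higher by 0.72, 0.57 and 0.38. Lactate dehydrogenase subunits thus differed in sign, Ldha by -0.52 and Ldhb by 1.12.

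**Figure D4:**
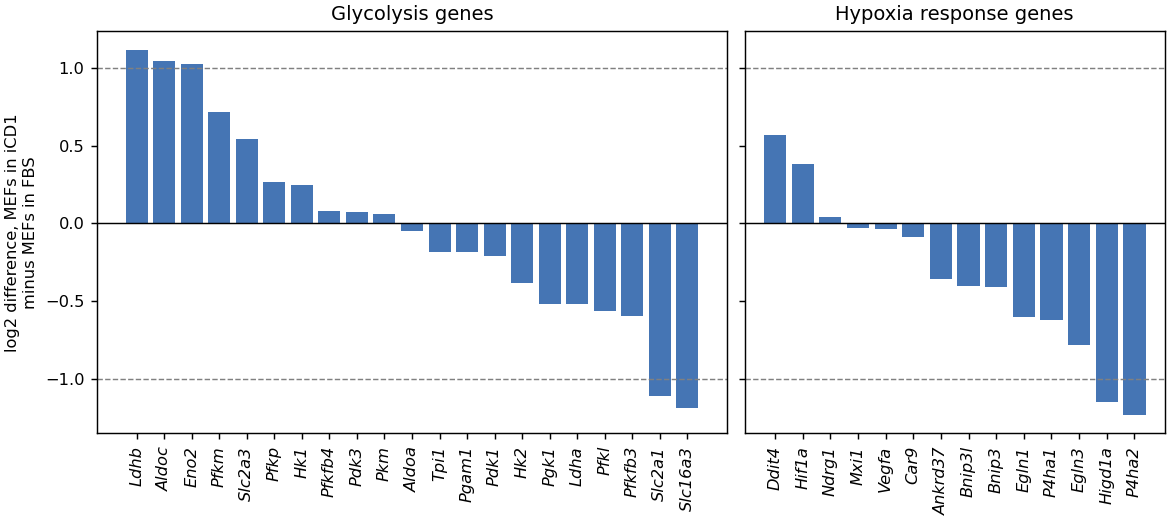
Log2 difference of each measured gene, MEFs in iCD1 minus MEFs in FBS (1 array each), for glycolysis genes (left) and hypoxia genes (right), ordered by size, with dashed lines at 2-fold. Ldhb, Aldoc and Eno2 lay above the upper line, and Slc2a1, Slc16a3, Higd1a and P4ha2 below the lower line.

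Some members hardly differed among the 7 arrays. Bnip3l stayed between 9.02 and 9.45, Pkm between 10.98 and 11.44, Mxi1 between 6.16 and 6.68, and Car9, an acid-handling enzyme gene that HIF strongly induces, between 3.51 and 3.98, under the median of every array. The probe set of Pkm used here lists no RefSeq transcript of the gene. No signal over background is given with the values, so low levels are not separated from background.

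Related genes of the same pathways were counted from lists. In the KSR lines against MEFs, 3 of 33 other glycolysis genes rose and 5 fell, 2 of 6 pentose phosphate genes rose (Tkt and Taldo1), 1 of 10 other genes of the HIF machinery rose and 2 fell, and 5 of 30 other hypoxia targets rose and 6 fell (limma), where 12.1% of all genes rose and 14.3% fell. The counts for the other glycolysis genes lay near those shares. Of the 30 other hypoxia targets 20 (66.7%) had an unadjusted p under 0.05 (limma), against 39.0% of all genes. Their median difference was -0.31, with 10 higher and 20 lower. Epas1, which encodes the second HIF alpha subunit, had levels of 6.80, 6.68 and 6.20 in lines O4-1, O4-2 and O4-4, against 4.85 and 5.22 in MEFs in iCD1 and FBS. It rose by 1.53 ± 0.23 (limma, adjusted p = 0.0232), while Hif1a fell.

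Of the other hypoxia targets, Ak4, an adenylate kinase gene of mitochondria, had 6.93, 6.98 and 8.49 in the KSR lines, against 4.22 and 5.14 in MEFs in iCD1 and FBS, and rose by 2.79 ± 0.61 (limma, adjusted p = 0.0483). The transferrin receptor gene Tfrc rose by 2.33 ± 0.14, Rragd, which encodes a Rag GTPase, by 1.81 ± 0.13 and the histone demethylase gene Kdm3a by 1.63 ± 0.33 (limma, adjusted p between 0.00760 and 0.0419). The collagen-modifying genes Lox and Plod1 fell by 2.44 ± 0.23 and 2.11 ± 0.18 (limma, adjusted p = 0.0105 and 0.00969), in the same direction as P4ha1 and P4ha2. Ldhc, the lactate dehydrogenase gene of testis, rose by 1.52 ± 0.29 (limma, adjusted p = 0.0364), at levels of 4.09 to 4.88 in the KSR lines, against 3.12 and 2.92 in MEFs in iCD1 and FBS.

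In 2i against KSR, 24 of 30 other hypoxia targets were higher on the mean of both arrays, with a median of 0.34. ES cells in 2i had 27 of the 30 higher (median 0.42) and iPS cells in 2i 20 (median 0.28). In the other lists, 18 of 33 other glycolysis genes were higher on the mean of both arrays and 15 lower (median 0.05), and 5 of 10 genes of the HIF machinery were higher and 5 lower (median 0.01), and 5 of 6 pentose phosphate genes were higher (median 0.09). Between the MEF media the largest differences of these lists were those of Tfrc (6.19 in iCD1, against 8.46 in FBS), the vasodilator peptide gene Adm (7.42 against 9.04), Lox (9.14 against 10.50), the enolase gene Eno3 (6.06 against 7.38) and the pyruvate carboxylase gene Pcx (6.82 against 5.59), the first 4 lower and Pcx higher in iCD1.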

How the data were processed

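RNA of 7 mouse cultures (100 ng each) was labelled for Affymetrix whole transcript arrays, per the labels' protocols. The deposited values are log2 levels per probe set; per the submitters' processing notes the authors used RMA and Partek, whose versions and settings are not stated there. They were used as deposited, with no filter. Of 28853 probe sets 21789 had 1 gene symbol in the platform annotation, 1621 had several and 5443 had none. Differences were tested with limma 3.58.1 (R 4.3.3) in 1 model of 5 groups (two-sided; Benjamini-Hochberg over 19938 genes; threshold 0.05). The replicated KSR lines left 2 residual degrees of freedom, limma's prior contributed 1.62 more with an SD of 0.13, and groups of 1 array are assumed to vary like the KSR lines. Comparisons of 1 array with 1 have no test; differences of 2-fold or more were counted. The labels name no batch. RefSeq promoters (GRCm38.p6) were matched by symbol. Any member could be named, and of related lists the 8 largest called differences of KSR lines against MEFs and the 5 largest between MEF media. Members and lists were chosen with earlier results of these data known. Alternatives were other normalizations, filters, probe set rules, eBayes settings, fold thresholds and MEF arrays, and leaving out each KSR line. Reading Hk1 through its other probe set was added after seeing the data.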

Additional observations from a re-analysis of the deposited data

How the results depend on the processing

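No paired analysis was possible because line O4-1 is the only number that occurs in more than 1 of the groups compared. The number of members called against MEFs rested on single arrays, as did the number of all genes called. Leaving out 1 KSR line gave 0 to 5 called glycolysis genes and 0 to 1 hypoxia genes for KSR lines (4 and 3 with all lines), and 0 to 7 and 0 to 2 for 2i (9 and 4 with all lines). Of all genes 0% to 13.9% were called for KSR lines (26.4% with all lines) and 0% to 12.1% for 2i (22.2% with all lines). Against 1 MEF culture alone the counts changed too, and those for MEFs in FBS are given above beside the shares of all genes. Without 1 line the hypoxia median of KSR lines over MEFs ran from -0.16 to 0.19, and the medians of both 2i arrays over KSR from 0.39 to 0.69 for glycolysis and 0.24 to 0.57 for hypoxia genes. For iPS cells in 2i those ranges were 0.23 to 0.67 and 0.19 to 0.47. Only genes above the median level gave 0.59 for hypoxia genes in ES cells. At 1.5-fold 5 hypoxia genes differed between MEF media, 2 between ES and iPS cells in 2i, and 8 glycolysis and 5 hypoxia genes between the media of line O4-1. The shares of all genes at 1.5-fold are not given here, so these counts cannot be set against a background. With the mean of all probe sets of a gene 1 hypoxia gene differed 2-fold between MEF media and 1 between the media of O4-1. The shares of all genes under that rule are not given here either. The causes were not tested. No called difference changed sign under any alternative run. The fit of only the groups compared could not be made for 2i against MEFs, which leaves no replicate.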
